A study of Triticum polonicum with 10 samples.

Results

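A set of 189 root genes of dwarf Polish wheat stood low in 1 of 10 libraries, the control that received neither an iron salt nor cadmium, and higher in each of the other 9. The members were chosen by their measured levels. Of 274924 gene IDs in the count table, 73040 were IDs of the A and B subgenomes without the LC suffix, and 21594 of those had a mean of at least 5 CPM (counts scaled to the total of the library). A member lay at least 2 below every other library in the control on the scale log2(CPM + 0.5), a 4-fold gap. Of 190 such genes, none was higher by 1.5 or more with cadmium in all 5 pairs of libraries. TraesCS3B01G471700 was left out because its level in cadmium without iron, 274 CPM, exceeded every other library by 1.60 on the log2 scale, past the limit of 1. It was at 0.953 CPM in the control.

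Dwarf Polish wheat (Triticum polonicum) is a tetraploid wheat with an A and a B subgenome. Roots of 4-week-old seedlings were sequenced after 1 week of treatment. The groups were a control without iron salt or cadmium, 80 µM CdCl2 alone, 50 or 200 µM FeCl3, the same FeCl3 doses with 80 µM CdCl2, and 4 libraries of Fe2(SO4)3. Of the sulfate libraries, the one at 200 µM without cadmium had a title code and a treatment text that matched. For the other 3 the text contradicts the code: B50CK carries the text of 200 µM with cadmium, B50Cd that of 50 µM without it, and B200Cd that of 50 µM with it. These 3 are named by their codes, and results on their dose or cadmium are given under both readings. Each treatment had 1 library, although the design text names 3 biological replicates, so the control has no spread of its own and its state and its treatment cannot be told apart. "Without iron" refers to the added salt alone, as the sources used here do not give the iron content of the growth medium. Doses are µM of the salt, so equal doses of sulfate and chloride supply unequal iron.

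Iron is needed in roots for respiration, for enzymes with heme or iron-sulfur clusters and for redox reactions. Grasses take it up mainly as ferric iron bound to secreted chelators, and a shortage raises the genes of chelator synthesis and uptake. Cadmium is a toxic metal that can enter root cells through transporters of iron, zinc and other metals, and plants bind it with thiol peptides. The count table gives IDs alone, and no annotation was used here. No role is therefore given to any member, root identity was not checked by markers, and the gene lists drawn up for metal transport, chelation, redox, cell wall and other families could not be matched. Bread wheat IDs state the chromosome and subgenome, and their numbers follow gene order along a chromosome.

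Total counts ran from 13635628 in the control, the smallest library, to 19320820 in cadmium without iron. A level of 3 counts corresponded to 0.220 CPM in the control and to 0.155 to 0.214 CPM in the others. Over the 21594 genes the control lay 0.03 below the median of the other libraries on the log2 scale (median over genes), and 0.02 and 0.06 above it with TMM and DESeq2 size factors. Such scaled values cannot show a change in the total RNA of the roots.

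The gap set the control apart more often than any other library. Of the 21594 genes, 0.88% lay at least 2 below all others in the control. The same gap was met by 20 genes in cadmium without iron, 4 in 200 µM FeCl3, 3 in 200 µM Fe2(SO4)3, 1 in the library coded B50CK and 0 in each of the remaining 5. In the opposite direction, 75 genes (0.347%) stood at least 2 above all others in the control. That library was therefore extreme on both sides, with more genes on the low side. These counts rest on the values that chose the members and carry no test.

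**Figure D1:**
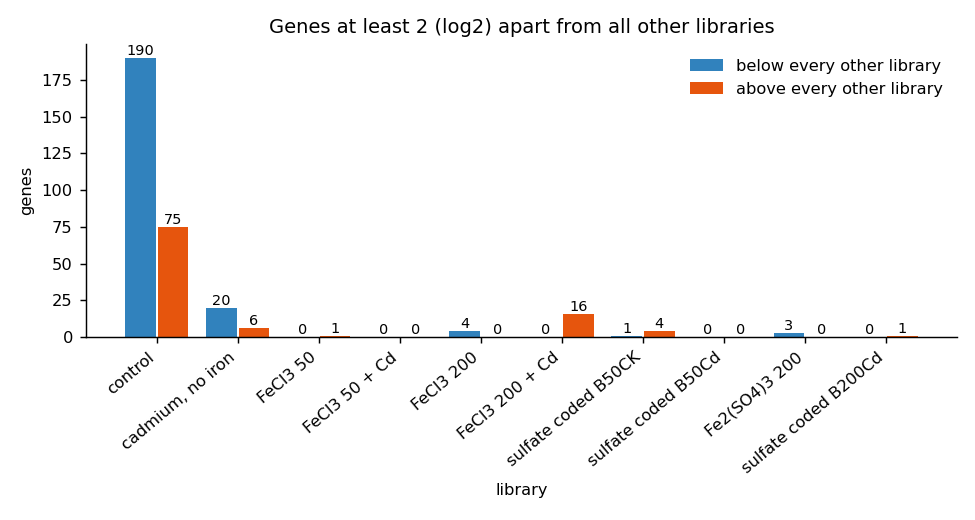
Number of genes (y axis) that lay at least 2 on the log2(CPM + 0.5) scale below (blue) or above (orange) all 9 other libraries, for each library (x axis), among 21594 genes. The control holds 190 genes on the low side and 75 on the high side, against at most 20 and 16 in any other library.

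Together the members took 0.124% of the counts of the control and 0.997% to 2.04% of the counts of the other libraries. Their median level was 2.27 CPM in the control. It was 23.4 CPM in the library coded B50CK, 27.3 CPM in B200Cd, 29.8 CPM at 200 µM FeCl3 and 31.7 CPM at 50 µM FeCl3. The libraries with higher medians were 200 µM Fe2(SO4)3 at 38.3 CPM, cadmium without iron at 39.0 CPM, B50Cd at 41.3 CPM, and FeCl3 with cadmium at 44.4 CPM (50 µM) and 49.6 CPM (200 µM). Among all 21594 genes the median moved only from 14.6 to 16.9 CPM across the 10 libraries. With 1 library a treatment, no order among neighbouring medians could be tested.

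**Figure D2:**
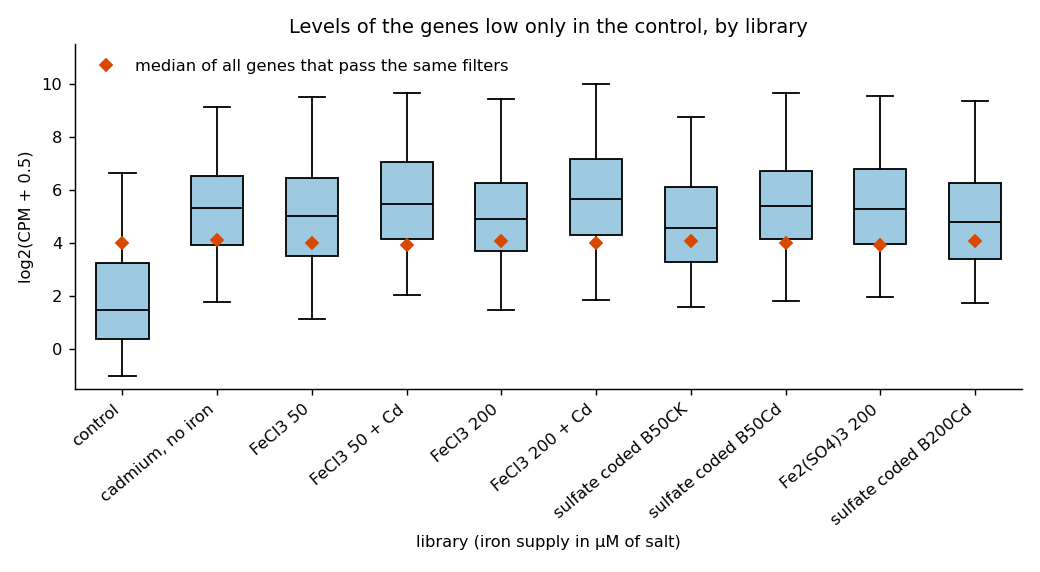
Levels of the 189 members as log2(CPM + 0.5) (y axis) in each library (x axis); boxes span the quartiles with the median as a line, and whiskers reach the lowest and highest member. The median of the members is 1.47 in the control and 4.58 to 5.65 elsewhere, while the median of all 21594 genes (diamonds) stays between 3.92 and 4.12.

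The gap between the control and the lowest other library had a median of 2.36 and reached 4.47 on the log2 scale. It was under 2.5 for 110 members, at least 3 for 32 and at least 4 for 4. Measured against the median of the other 9 libraries, members were lower in the control by 2.44 to 5.83, with a median of 3.40. The mean of the other 9 was 14.6 times the control in the median member among those with a control count. Counts in the control ran from 0 to 1367 with a median of 31, and 143 members had at least 10. For 120 members the 95% exact (Clopper-Pearson) counting interval of the ratio of the lowest other library to the control lay above 4, and for all 189 it lay above 2. These intervals cover counting error only, not the spread between plants. Members were chosen by this same ratio, so the intervals describe the depth of counting and are no test of the gap.

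The widest gap belonged to TraesCS5A01G404000. It had 1 count (0.073 CPM) in the control and 66.5 CPM in cadmium without iron. At 50 and 200 µM FeCl3 it had 17.2 and 17.9 CPM, and 51.4 and 41.6 CPM when cadmium was added. The sulfate libraries had 12.2 (B50CK), 32.2 (B50Cd), 25.5 (200 µM) and 37.7 CPM (B200Cd). The lowest of these, B50CK, was 167 times the control, with a counting interval of 29.5 to 6618 because of the single count. Both FeCl3 libraries with cadmium were above both without it.

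TraesCS3A01G343900 had the next widest gap, 4.34. Its control level was 2.05 CPM (95% exact Poisson interval 1.36 to 2.97), and cadmium without iron gave 101 CPM. It was at 73.4 and 82.4 CPM with 50 and 200 µM FeCl3, and at 141 and 153 CPM when cadmium was added. In the sulfate libraries it was at 62.9 (B50CK), 93.7 (B50Cd), 87.3 (200 µM) and 51.2 CPM (B200Cd). This gene rested on 28 control counts, and the B200Cd level was 24.9 times the control (counting interval 17.1 to 37.8). The FeCl3 libraries with cadmium were the highest.

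The most abundant members per length were judged by FPKM, which divides CPM by gene length in kilobases. TraesCS7A01G450400 averaged 1849 FPKM over the other 9 libraries and stood at 265 FPKM in the control. Its CPM were 100.3 in the control, 496 in cadmium without iron, 733 and 685 with 50 and 200 µM FeCl3, and 795 and 1012 with FeCl3 and cadmium. The sulfate libraries had 428 (B50CK), 801 (B50Cd), 696 (200 µM) and 645 CPM (B200Cd). Its gap of 2.09 was close to the limit and fell to 1.92 with TMM scaling and to 1.88 with DESeq2 size factors, which ends its membership.

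TraesCS7A01G203900 averaged 806 FPKM over the other 9 libraries, against 61.3 FPKM in the control. It was at 29.4 CPM in the control, 311 in cadmium without iron, 351 and 368 with 50 and 200 µM FeCl3, and 452 and 565 with FeCl3 and cadmium. In the sulfate libraries it had 201 (B50CK), 435 (B50Cd), 537 (200 µM) and 264 CPM (B200Cd). B50CK was the lowest of the 9, at 6.83 times the control (counting interval 6.15 to 7.60).

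Members with no or few control counts form the other end of the range. There were 4 members with 0 control counts and 13 with 1 to 3. TraesCS7B01G301100 had 0 control counts and 450 in cadmium without iron. Its lowest other level, 4.57 CPM at 200 µM FeCl3, was 20.8 times a floor of 3 control counts (counting interval from 16.4). For TraesCS5B01G374600, also at 0 in the control, the lowest other level was 3.79 CPM in B50CK, 17.2 times that floor (interval from 13.5). The lowest other levels of TraesCS2A01G399500 and TraesCS3B01G114700, also at 0, were 10.5 and 7.75 times that floor (intervals from 8.11 and 5.93). For these 4 members the intervals are of the ratio to the 0 control counts, not to the floor.

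At the limit itself, 27 genes lay within 0.1 inside and 39 within 0.1 outside. TraesCS4A01G405500 (19.6 CPM in the control and 79.8 CPM in its lowest other library) and TraesCS6B01G334000 (12.7 and 52.4 CPM) were just inside. Just outside were TraesCS7A01G198300 (gap 1.99, 56.6 and 227 CPM) and TraesCS3B01G531500 (gap 1.99, 6.75 and 28.4 CPM). The limit cuts a continuous range of gaps.

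Among the 9 libraries where they were high, members varied by more than most genes. The SD over these 9 libraries was 0.59 (log2) in the median member and 0.43 in the median of all 21594 genes, and the full range was 1.78 against 1.31. TraesCS2A01G174600 was the most variable, from 35.9 CPM in cadmium without iron to 456 CPM in 50 µM FeCl3 with cadmium, with 7.19 CPM in the control. TraesCS1B01G243200 went from 4.30 CPM at 200 µM FeCl3 to 55.5 CPM in B50CK, with 0.513 CPM in the control. The steadiest was TraesCS2A01G114900, at 9.99 to 14.0 CPM in the 9 libraries and 1.17 CPM in the control. TraesCS3A01G179200 was nearly as even, at 7.89 to 14.1 CPM against 1.32 CPM in the control.

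**Figure D3:**
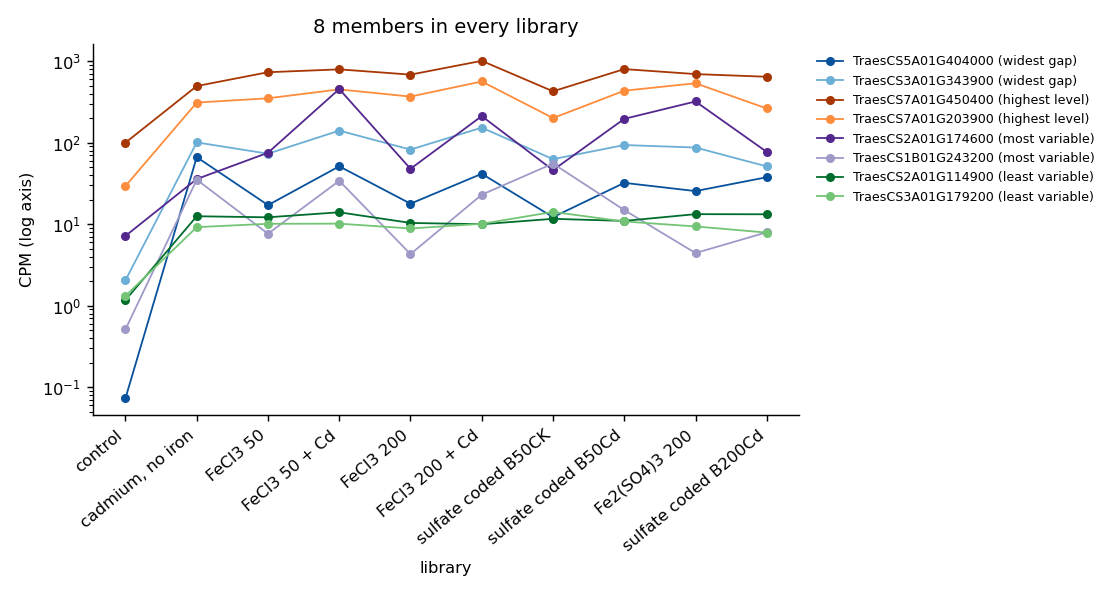
CPM on a log axis (y axis) in each library (x axis) for 8 members: those with the widest gap, the highest FPKM, and the largest and smallest SD over the 9 other libraries; each point is 1 library and lines only join the points of a gene. The steady pair stays between 7.89 and 14.1 CPM outside the control, while TraesCS2A01G174600 spans 35.9 to 456 CPM.

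Libraries other than the control also took sides in a recurring way. The lowest of the 9 was B50CK for 73 members (38.6%, against 12.5% of all genes) and B200Cd for 42 (22.2%, against 7.28%). The highest was 200 µM FeCl3 with cadmium for 63 members (33.3%, against 4.34% of all genes) and 50 µM FeCl3 with cadmium for 33 (17.5%, against 5.41%). Cadmium without iron, the other library without added iron, lay inside the range of the 8 iron-fed libraries for 155 members (82.0%, against 65.6% of all genes). Its median difference from the median of the iron-fed libraries was 0.03 for members and 0.17 for all genes. The rule fixed that this library exceed the control by the gap and limited how far it could exceed the rest.

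In a few members cadmium alone gave the highest level. This held for 18 members (9.52%, against 22.6% of all genes), after the rule had removed 1 further gene of this kind. TraesCS6B01G110200 was at 41.7 CPM in cadmium without iron, against 2.71 to 24.9 CPM in the iron-fed libraries and 0.220 CPM (3 counts) in the control. TraesCS7B01G496400 was at 29.7 CPM there, against 2.88 to 18.7 CPM and 0.147 CPM (2 counts).

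The cadmium question was examined pair by pair. The pairs entered the rule, so their differences are described and not tested, and pairs that share no library with the control are given beside all genes. Without iron, all 189 members were over 2-fold higher with cadmium by choice (median difference 3.40), as were 18.6% of all genes. At 50 µM FeCl3 the median difference was 0.51 for members and -0.11 for all genes, with 33 members at least 2-fold higher (17.5%, background 7.98%) and 6 lower (3.17%, background 8.36%). At 200 µM FeCl3 it was 0.71 against -0.16, with 68 members at least 2-fold higher (36.0%, background 11.4%) and 7 lower (3.70%, background 7.87%). The members' median lay above that of all genes by 0.62 and 0.88 in these pairs. With TMM scaling, which moved the median of all genes to 0.09 and 0.08, the distances were 0.63 and 0.88. At both doses 137 members were higher with cadmium by any size (72.5%, background 26.5%), and 19 were at least 2-fold higher at both (10.1%, background 4.5%).

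Ranked by the smaller of its differences in the FeCl3 pairs, TraesCS2A01G174600, described above as the most variable, came first. It went from 75.3 to 456 CPM at 50 µM and from 47.9 to 212 CPM at 200 µM. TraesCS1B01G243200 went from 7.64 to 34.1 CPM and from 4.30 to 23.0 CPM. The opposite order, at least 2-fold lower at both doses, was seen in 3 of 189 members and in 561 of all 21594 genes. TraesCS3A01G242900 went from 11.6 to 4.06 CPM and from 9.96 to 3.16 CPM, and TraesCS5A01G049600 from 55.9 to 26.4 CPM and from 104 to 46.4 CPM.

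The sulfate pairs depend on how the labels are read. By title code, members were higher with cadmium in the 50 µM pair (median 0.81, against -0.10 for all genes) and lower in the 200 µM pair (median -0.59, against 0.07). In the 50 µM pair 74 members were at least 2-fold higher (39.2%, background 12%) and 7 lower (3.70%, background 15.6%). In the 200 µM pair 3 were higher (1.59%, background 9.9%) and 57 lower (30.2%, background 5.22%). By treatment text, members were lower with cadmium in both pairs, with medians of -0.59 at 50 µM and -0.80 at 200 µM, against 0.04 and 0.11 for all genes. In those pairs 35 and 74 members were at least 2-fold lower (18.5% and 39.2%, background 1.46% and 7.39%). At least 2-fold higher were 1 and 7 (0.529% and 3.70%, background 3.32% and 13.5%). By any size, 143 members were lower in both (75.7%, background 24.3%).

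Whatever the reading, the 4 sulfate libraries fell into the same order for most members. In 111 members (58.7%, background 12.9%) both B50Cd and the 200 µM library without cadmium were above both B50CK and B200Cd, and in 0 members they were both below (background 20.2%). By treatment text this order is that of no cadmium over cadmium. Read that way, 100 members (52.9%, background 6.29%) were higher with cadmium at both FeCl3 doses and lower with cadmium in both sulfate pairs. By title code, 116 members (61.4%, background 16.5%) were higher with cadmium in the 50 µM and lower in the 200 µM sulfate pair. Which reading is right cannot be settled from the labels. The libraries B50CK and B200Cd also set the limit for most members, since they were most often the lowest of the 9.

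**Figure D4:**
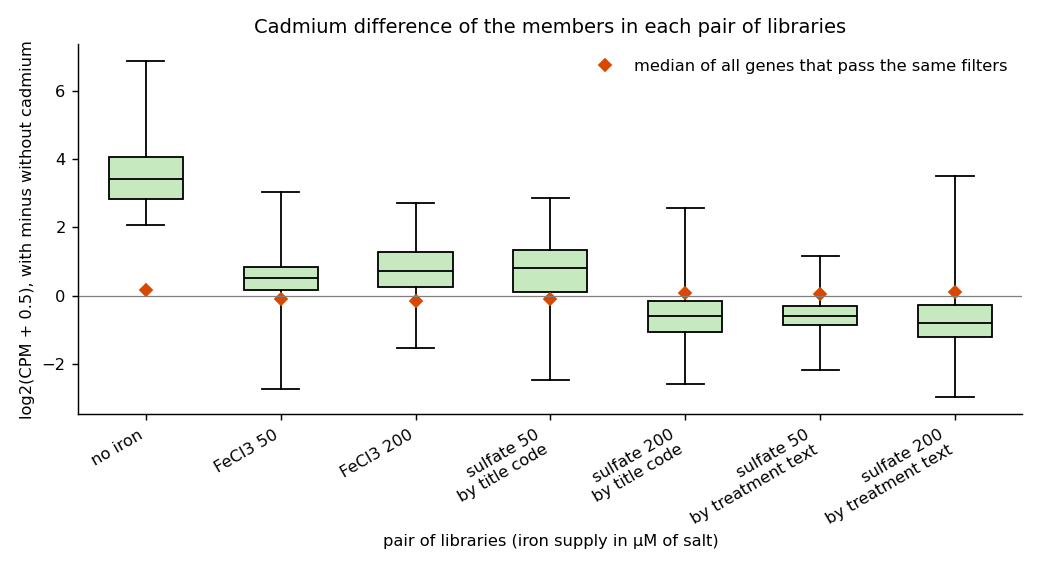
Difference in log2(CPM + 0.5), with minus without cadmium (y axis), of the 189 members in each pair of libraries (x axis), with the sulfate pairs formed by title code and by treatment text; boxes span the quartiles with the median as a line, whiskers reach the lowest and highest member, and diamonds give the median of all 21594 genes. The median is 0.51 and 0.71 in the FeCl3 pairs and -0.59 and -0.80 in the sulfate pairs by treatment text; the pair without iron, at 3.40, was used to choose the members.

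The iron salts were compared with edgeR's quasi-likelihood test as 4 FeCl3 against 4 Fe2(SO4)3 libraries, a contrast the rule did not use. The control took no part. Of 50484 genes tested, 0% passed a Benjamini-Hochberg adjusted p of 0.05, and 0 of the 189 members, all of which were tested, were called (smallest adjusted p = 0.999). For unadjusted p-values, here and in the FeCl3 dose test, background is the share among all genes tested, not among the 21594. At an unadjusted p under 0.05 there were 15 members (7.94%, background 3.57%), 14 of them lower with sulfate. That number depended on single libraries: it was 40 (21.2%, background 7.25%) without 200 µM FeCl3 and 6 (3.17%, background 2.17%) without B200Cd. With cadmium and dose as covariates it was 8 by treatment text (4.23%, background 3.72%) and 20 by title code (10.6%, background 6.81%). DESeq2 called 17 genes, among them 1 member, and limma on FPKM called 0. The mean of the sulfate libraries was below that of the chloride libraries for 138 members (73.0%, against 49.0% of all genes), and the median difference was -0.26 against 0.01 (-0.30 against -0.04 with TMM scaling). The groups did not overlap for 4 of the 189 members lower with sulfate (background 0.676%) and 1 higher (background 0.801%).

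TraesCS1B01G074100 was the member that DESeq2 called. Its chloride libraries had 24.9, 27.3, 31.6 and 21.7 CPM (50 µM without and with cadmium, then 200 µM), and its sulfate libraries 11.6, 16.3, 12.3 and 10.4 CPM (B50CK, B50Cd, 200 µM, B200Cd), with 1.83 CPM in the control. The ranges did not overlap, and edgeR gave a log2 fold of -1.11 ± 0.23 (SE, n = 4 libraries each, adjusted p = 0.999). TraesCS6B01G288700 had the lowest mean log2(CPM + 0.5) with sulfate relative to chloride (-1.06, against -1.04 for TraesCS1B01G074100), at 39.5, 18.6, 35.0 and 24.7 CPM with chloride and 14.6, 10.1, 23.1 and 9.16 CPM with sulfate, and these ranges overlapped. Its log2 fold was -1.09 ± 0.33 (edgeR, adjusted p = 0.999). TraesCS1A01G304000 lay on the other side, at 5.28, 18.5, 5.80 and 29.0 CPM with chloride and 9.79, 29.8, 47.1 and 43.0 CPM with sulfate (log2 fold 1.05 ± 0.65, edgeR, adjusted p = 0.999). For this member, too, the salts overlapped.

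The FeCl3 dose was tested in the 4 chloride libraries with cadmium as a covariate, which leaves 1 residual degree of freedom. In edgeR 0% of 51872 genes and 0 of 189 members passed (smallest adjusted p among members 0.735). At an unadjusted p under 0.05 there were 18 members (9.52%, background 6.75%), 7 of them higher and 11 lower at 200 µM. With limma on FPKM there were 12 (6.35%, background 7.94%), 9 of them higher and 3 lower. Over the 8 iron-fed libraries there were 8 by title code (4.23%, background 4.48%) and 6 by treatment text (3.17%, background 5.81%). DESeq2 called 102 genes and limma on FPKM 0, none of them members. The median difference between 200 and 50 µM was 0.01 for members and 0.10 for all genes without cadmium, and 0.15 and 0.07 with it. Without cadmium 12 of the 189 members were at least 2-fold higher (background 6.38%) and 18 lower (background 8.27%) at 200 µM, both shares near background. With cadmium the counts were 11 (background 2.17%) and 5 (background 1.44%) of the 189, shares above background that rest on few members.

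At 200 µM, 1 member was at least 2-fold higher in both cadmium states (54 of all 21594 genes), and 0 were as much lower (86 of all genes). The 1 higher member was TraesCS6B01G359700. Its levels at 50 and 200 µM were 7.31 and 16.7 CPM without cadmium and 7.43 and 15.7 CPM with it, with a log2 fold of 0.97 ± 0.32 (edgeR, adjusted p = 0.735). TraesCS6A01G329000 went from 6.27 to 16.9 CPM and from 6.17 to 12.6 CPM (log2 fold 1.06 ± 0.33, edgeR, adjusted p = 0.735). The control held 0.880 and 0.953 CPM of these members. Lower at 200 µM was TraesCS4B01G304600, from 264 to 161 CPM without and from 557 to 302 CPM with cadmium (log2 fold -0.96 ± 0.30, edgeR, adjusted p = 0.735). None of these passed the threshold.

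The members were somewhat short genes, and abundant outside the control. The rule itself required them to be higher in those 9 libraries. In the control their median was 2.80 FPKM, against 12.7 for all genes. Their mean FPKM over the other 9 libraries had a median of 41.0, against 13.4 for all 21594 genes, and 148 of 189 lay above that value. In 4 classes of equal size by this level, 21, 20, 39 and 109 members fell from the lowest to the highest, or 0.389%, 0.371%, 0.722% and 2.02% of the genes there. The pseudocount of 0.5 CPM makes the gap harder to reach for genes of low level, and its part in this order was not tested. Median length was 1049 bp against 1259 bp. In 4 such classes by length, 70, 54, 43 and 22 members fell from shortest to longest, or 1.30%, 1.00%, 0.797% and 0.407%. Over all genes, the control lay above the median of the other libraries by 0.10 in the class of shortest genes and below it by 0.18 in the longest. The part of length, level or RNA quality in the low control values was not tested.

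**Figure D5:**
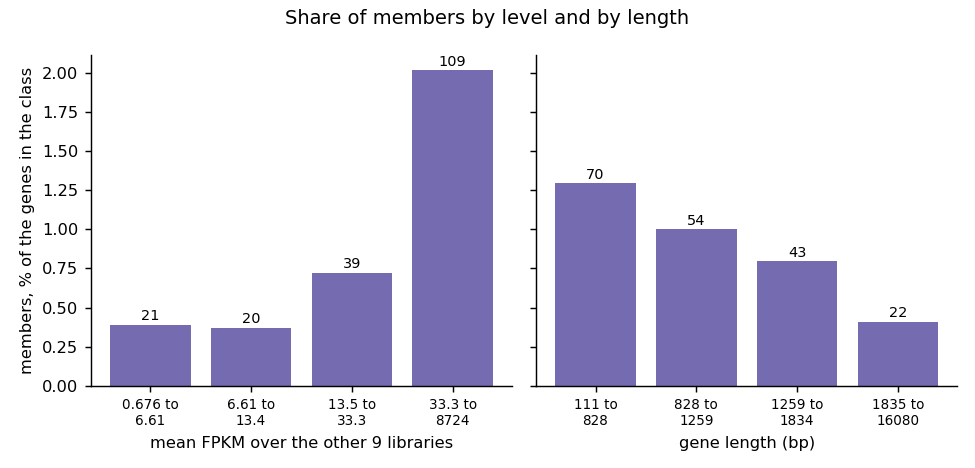
Members as a percentage of the genes (y axis) in 4 classes of equal size by mean FPKM over the 9 libraries other than the control (left) and by gene length in bp (right), with the number of members above each bar. The share goes from 0.389% to 2.02% with level and from 1.30% to 0.407% with length.

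Members were spread over all 14 chromosomes. Subgenome A held 95 (0.883% of its 10764 genes) and subgenome B 94 (0.868% of 10830). Single chromosomes ranged from 7 members on 4A (0.477%) to 20 on 3A (1.22%). By chromosome group, the shares ran from 0.598% in group 4 to 1.10% in group 6.

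Some members lay close together. When the A and B IDs were ordered by number on each chromosome, 39 members stood within 5 places of another member, in 12 runs of 2 and 5 runs of 3. In the run on 1A, TraesCS1A01G370400 was at 5.79 CPM in the control and 42.6 to 193 CPM elsewhere, and TraesCS1A01G370600 at 26.3 CPM and 129 to 363 CPM. Neighbours can be tandem copies that share reads, and A and B copies are near-identical in many genes, so single values of such genes are uncertain. The 582 genes within 5 places that were no members were at least 1 below every other library in the control in 55 cases (9.45%, background 4.91%). Their median distance below the median of the other 9 libraries was 0.13, against 0.03 for all genes and 3.40 for members.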

How the data were processed

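Root RNA was sequenced in 10 libraries, 1 per treatment, from TruSeq libraries per the labels' protocols. The authors deposited raw counts, whole numbers for each ID, and FPKM of the same IDs; Bowtie2 2.0.6 and TopHat2 2.0.12 come from the submitters' processing notes. Not given in the sources used here are the counter, genome build, strand setting and handling of multi-mapped reads, which could move counts between similar copies.

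CPM was computed from the library totals, and gene length from CPM divided by FPKM. Members followed the stated rule, with sulfate pairs by title code. The members and lists were chosen with earlier results of these data known, so levels and gaps are descriptions. Salt and FeCl3 dose were tested on the whole table with edgeR 4.0.16 (quasi-likelihood, TMM, filterByExpr, Benjamini-Hochberg at 0.05; R 4.3.3), and DESeq2 1.42.0 and limma 3.58.1 (log2(FPKM + 0.5)) served as alternatives. Both tests were checked on simulated counts in which no treatment but the tested one changed levels. The real groups mix further treatments, so that check does not show what the tests could miss here. P-values reflect the spread among libraries of different treatments. As no annotation of the IDs was used here, the naming rule took at most 2 members per description, the most extreme by the quantity described. Standard errors were derived from the log2 fold and the F statistic. Total counts of 13635628 to 19320820 set a floor of 3 counts at 0.155 to 0.220 CPM.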

Additional observations from a re-analysis of the deposited data

Results flagged for a closer look

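Named members, the members' median level and their share of counts were examined for 1 library far from the rest within each salt (4 libraries each), in 46 groups in all. Among replicates, chance would give about 2.3 such cases, and 2 were found. The 4 libraries of a salt differ in treatment, and the named members were chosen from these data. The figure of 2.3 is therefore only a rough guide. TraesCS3A01G179200 was lowest at 200 µM FeCl3 (3.23 on the log2(CPM + 0.5) scale, against 3.41 in each of the other FeCl3 libraries). TraesCS7B01G496400 was highest at 200 µM FeCl3 with cadmium (4.12, against 2.03 to 2.15).

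IDs that the rule does not admit were examined with the same mean and gap, which 0.88% of the rule's genes met. Of 2086 LC IDs on A and B, 16 (0.767%) lay at least 2 below all other libraries in the control, and at most 2 did so in any other library. Among 395 D subgenome IDs there were 5 (1.27%, at most 1 elsewhere), among 1330 IDs of the form Novel01142 there were 2 (0.15%, at most 1 elsewhere) and among 151 unplaced IDs 1 (0.662%, 0 elsewhere). Differences between these shares were not examined by a test.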

How the results depend on the processing

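The 189 members became 454 with a gap of 1.5 and 32 with a gap of 3, which follows from the limit itself. Asking the gap of the 8 remaining libraries, each of the 9 left out in turn, gave 190 to 250 genes. Without the 3 sulfate libraries whose labels conflict, an alternative chosen after seeing the data, there were 308, since fewer libraries set the limit. Other settings stayed within 1.5 times: 157 with TMM scaling (156 of them among the 189), 148 with DESeq2 size factors (all among the 189), 132 and 270 with pseudocounts of 1 and 0.1 CPM, 196 and 161 with means of 1 and 10 CPM, 196 without a filter on the mean, 190 without the drop conditions, and 189 with sulfate pairs by treatment text. Between the salts DESeq2 called 1 member where edgeR called 0, and the count stayed at 0 in the other settings, including each library left out in turn (0 to 0). For the FeCl3 dose, leaving out the filter on low counts gave 1 of 189 members by edgeR (TraesCS3A01G408700, lower at 200 µM). Over all genes that setting called 597 of 95155 (0.627%). DESeq2, limma, DESeq2 size factors and the 8 iron-fed libraries under either reading called 0 members. The cause of this difference was not tested. Leaving out a library of the dose test was not run, as no residual degree of freedom is left. No paired analysis was possible because the labels carry no replicate numbers; cadmium and dose entered as covariates instead. Depth limits the 17 members with 3 or fewer control counts.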
